A study of Mus musculus with 6 samples.

Results

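Dendritic cell (DC) subset genes were examined in whole tumor tissue with and without sorafenib (Sora), a small-molecule inhibitor of several kinases. The 10 genes were set by symbol as markers of the DC subsets: Xcr1, Clec9a, Batf3, Irf8, and Itgae for conventional type 1 DCs (cDC1), Zbtb46 for conventional DCs (cDCs) at large, Cd209a for conventional type 2 DCs (cDC2), Siglech for plasmacytoid DCs (pDCs), and Ccr7 and Fscn1 for migratory DCs. All 10 were among the 26167 genes of the deposited tables. The tumors came from Hepa1-6, a mouse hepatoma cell line (written Hep1-6 in the sample labels), grown as grafts beneath the skin of C57BL/6J mice that were female and 6 to 8 weeks old when bought. Control tumors 1, 3, and 4 were compared with Sora-treated tumors 2, 3, and 4, numbered as in the labels. Sora was injected intraperitoneally at 10 mg/kg, first on day 9 after the cells and again on days 11, 13, and 15. What the control mice received is not given in the sources used here. Each library held RNA of a piece of tumor, so tumor cells, skin next to the graft, and all infiltrating cells could contribute, and fewer DCs and less RNA per DC cannot be told apart. The labels do not say in so many words that each library came from its own mouse, and if some shared a source the p-values would measure only the spread between these samples.

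DCs are the cells that take up antigen in tissue and present it to T cells. cDC1s, which depend on the transcription factors Irf8 and Batf3, present antigen of dead cells on MHC class I to CD8 T cells and are attracted by Xcl1 through the receptor Xcr1. cDC2s mainly prime CD4 T cells, and pDCs are known for type I interferon. On maturation, DCs gain Ccr7 and travel along its ligands Ccl19 and Ccl21 to the draining lymph node. Several of these genes are not private to DCs. Irf8 is also used by macrophages and B cells, Batf3 by activated T cells, Itgae (CD103) by resident T cells, Ccr7 by naive T cells and B cells, and Fscn1, an actin-bundling protein, by many tumor cells.

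In GENCODE M21 (GRCm38), the cDC1 genes are Xcr1 on chromosome 9 (123852315 to 123862029, minus strand), Clec9a on chromosome 6 (129408862 to 129424763, plus strand), Batf3 on chromosome 1 (191097847 to 191108945, plus strand), Irf8 on chromosome 8 (120736358 to 120756694, plus strand), and Itgae on chromosome 11 (73090583 to 73147446, plus strand). The others are Zbtb46 on chromosome 2 (181387762 to 181459426, minus strand), Cd209a on chromosome 8 (3743397 to 3748984, minus strand), Siglech on chromosome 7 (55768178 to 55778925, plus strand), Ccr7 on chromosome 11 (99144196 to 99155077, minus strand), and Fscn1 on chromosome 5 (142960343 to 142973185, plus strand).

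Each tumor had between 31073830 and 36205814 counted reads, so Xcr1, the rarest of the 10 genes, rested on 9 to 27 reads per tumor and Irf8 on 4600 to 6853. The table of counts used here holds 5 tumors. For Sora-treated tumor 4, whole counts were computed back from its FPKM (reads scaled to gene length and library total), and 100% of them came within 0.01 of a whole number. CPM below are counts scaled to a common library total, with TMM as the correction for library composition. The groups were compared by the quasi-likelihood test of edgeR with Benjamini-Hochberg adjustment over 16513 genes, those that reached 10 counts in 3 or more tumors, and all 10 genes passed this filter. A gene was called at an adjusted p under 0.05.

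The 10 genes differed widely in level. On the FPKM scale, which divides by gene length and so allows genes to be compared, Irf8 was highest with a mean level of 47.7 over the 6 tumors (lowest 41.8, highest 58.5). Fscn1 followed at 15.4 (12.6 to 17.9) and Batf3 at 8.60 (6.63 to 11.3). These 3 ranges overlapped neither each other nor that of the next gene, Ccr7. Ccr7 (mean FPKM 3.36), Cd209a (2.90), Clec9a (1.79), and Zbtb46 (1.69) came next, and in this order the range of each overlapped that of the following gene. Itgae was at 0.615 FPKM (0.449 to 0.857), apart from both neighbors. Siglech (0.205 FPKM) and Xcr1 (0.113 FPKM) were lowest, and their ranges overlapped. By these FPKM Irf8 was 423 times as high as Xcr1, although both belong to the cDC1 group. Clec9a, a cDC1 receptor for actin of dead cells, was 15.9 times as high as Xcr1 per gene length. Xcr1 was thus close to the detection limit of these libraries while the 2 transcription factors of cDC1s were not. The lengths behind the FPKM are those of the authors. For Xcr1 the length implied by counts and FPKM, 4453 bases, equaled the summed exons of GENCODE M21 (GRCm38), whereas for Batf3 it was 712 against 1597 bases and for Irf8 3435 against 7055, so the levels of both depend on the length used. With the exon sums, Irf8 would be at 23.2 FPKM, 206 times as high as Xcr1, and Batf3 at 3.84 FPKM (2.95 to 5.03), where its range overlaps that of Ccr7.

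**Figure D1:**
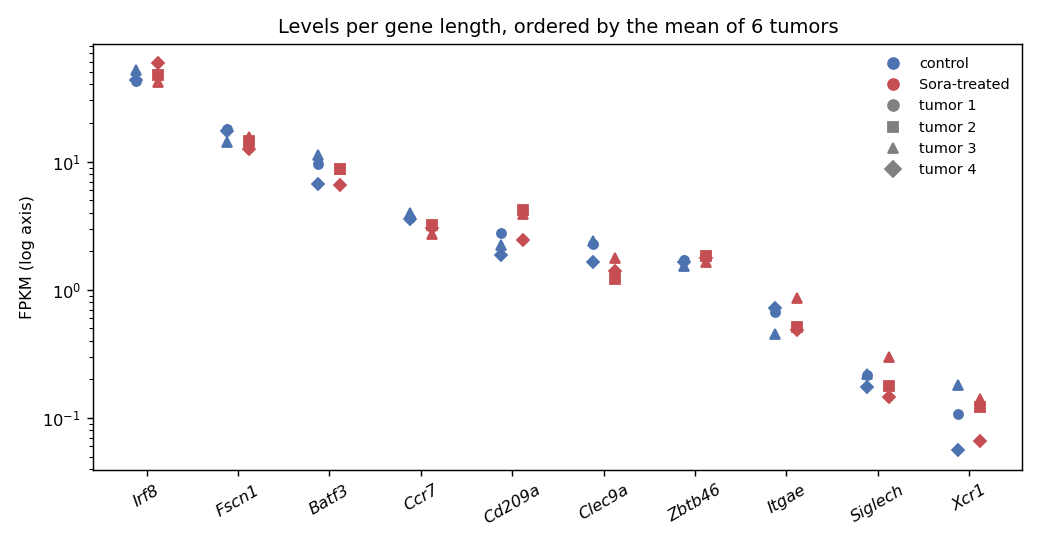
Levels of the 10 DC subset genes on a log axis of FPKM, 1 point per tumor (blue, control; red, Sora-treated; symbols give the tumor number), ordered by the mean of all 6 tumors. Irf8 lies at 41.8 to 58.5 FPKM and Xcr1 between 0.0558 and 0.182 FPKM, and the points of both groups mix in most genes.

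None of the 10 genes passed the test between the groups. Their adjusted p ranged from 0.209 to 0.98 (edgeR), whereas 3.29% of all genes tested were called. By DESeq2, which called 7.71% of all genes, and by limma voom, which called 3.2% (1.79% higher and 1.4% lower), 0 of the 10 were called as well. At an unadjusted p under 0.05, 2 of the 10 genes remained, Cd209a on the higher side and Clec9a on the lower side, against 17.2% of all genes (8.53% higher and 8.69% lower). The CPM of the 2 groups did not overlap for 1 of the 10, Ccr7, against 22.2% of all genes. The fold changes went both ways, 5 above 0 and 5 below, with a median log2 fold change of -0.02 beside -0.0004 over all genes tested. The shares of the 10 genes were therefore near or under those of all genes. A p that misses the threshold does not show that the levels were alike, and the intervals below give the differences that these 6 tumors leave possible.

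**Figure D2:**
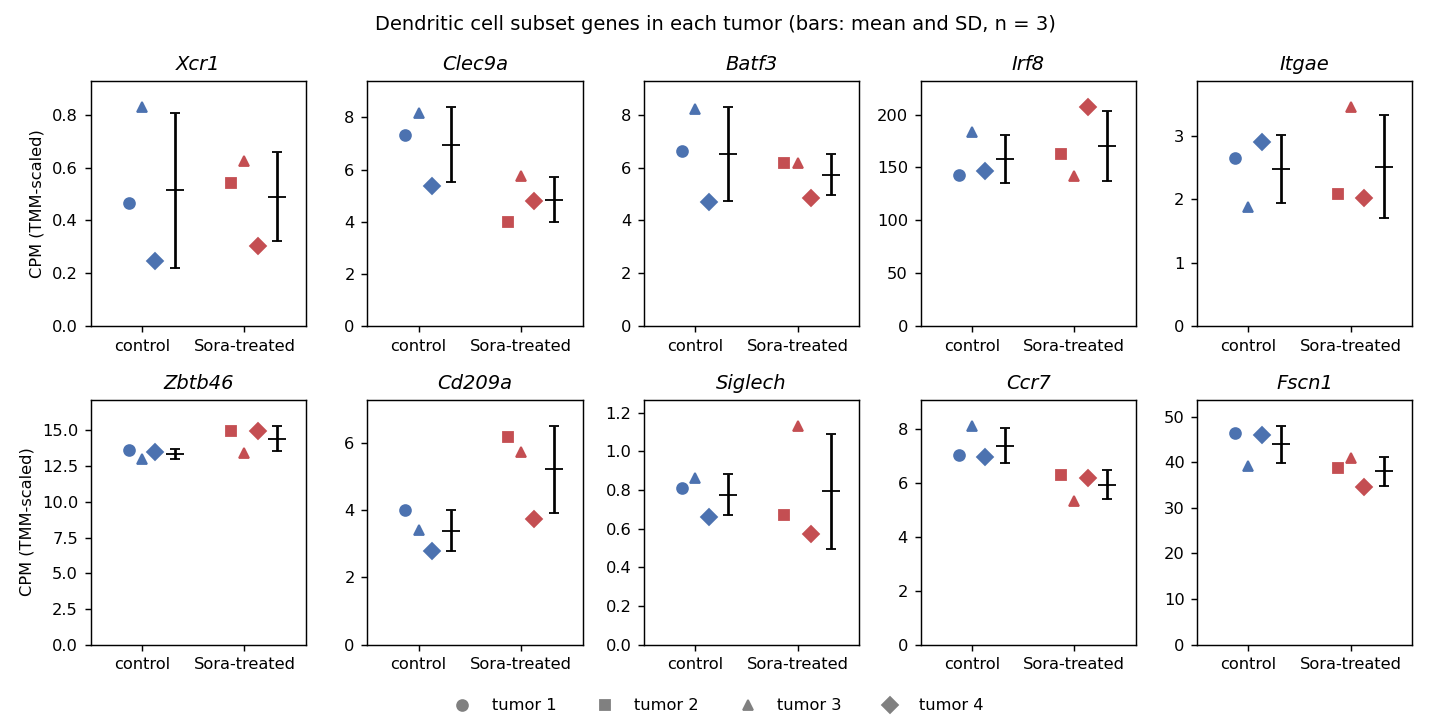
CPM of each gene in each tumor (linear axes from 0; blue, control; red, Sora-treated; black bars, mean and SD of 3 tumors). The groups overlap in 9 of the 10 genes, and in Ccr7 all Sora-treated tumors (5.30 to 6.30 CPM) lie under all control tumors (6.96 to 8.11 CPM).

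Among the cDC1 genes, Clec9a had the smallest p. Its level was 7.32, 8.17, and 5.37 CPM in control tumors 1, 3, and 4 and 3.996, 5.75, and 4.80 CPM in Sora-treated tumors 2, 3, and 4. Control tumors 1 and 3 were above every Sora-treated tumor, and control tumor 4 lay within the Sora-treated range. The means were 6.95 ± 1.43 and 4.85 ± 0.877 CPM (SD, n = 3). On the log2 scale the fold change was -0.52 ± 0.21 (standard error), with an adjusted p of 0.225 in edgeR. The 95% interval of the fold ran from 0.507 to 0.962, without adjustment for the number of genes. In GENCODE M21, 184 exon bases of Clec9a also belong to Clec1b on the same strand, and reads there are uncertain. Clec1b held 125 to 194 reads per tumor and Clec9a 125 to 266.

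Xcr1, the receptor for Xcl1, had a log2 fold change close to 0. It was at 0.467, 0.829, and 0.247 CPM in control tumors 1, 3, and 4 and at 0.543, 0.625, and 0.302 CPM in Sora-treated tumors 2, 3, and 4. The highest and the lowest value were both in control tumors. The log2 fold change was -0.06 with a 95% interval from -1.21 to 1.09 (adjusted p = 0.972, edgeR), so a 2-fold difference in either direction was not excluded. Counting error alone amounted to 24.3% of the mean in controls, where the spread between tumors was 57.2%.

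The RefSeq promoter windows (GRCm38.p6, 250 bases before the start and 50 from it) of these 2 cDC1 receptors are shown because both hold a match to a composite element of AP-1 and IRF factors, the kind of site that Batf3 and Irf8 can share. The motif searched, on both strands, was TTTC and TGA with 4 bases of any kind between them, and capitals mark the match. It begins 64 bases before the start in Clec9a, which lies on the plus strand (window chr6:129408612-129408911). It begins 127 bases before the start in Xcr1, on the opposite strand of the window, and Xcr1 lies on the minus strand (window chr9:123861980-123862279).
Clec9a: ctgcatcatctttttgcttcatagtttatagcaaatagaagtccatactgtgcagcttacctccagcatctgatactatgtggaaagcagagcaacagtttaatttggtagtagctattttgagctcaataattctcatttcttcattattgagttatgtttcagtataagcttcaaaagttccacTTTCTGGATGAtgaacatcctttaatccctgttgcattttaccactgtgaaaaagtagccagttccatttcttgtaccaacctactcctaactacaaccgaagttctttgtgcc
Xcr1: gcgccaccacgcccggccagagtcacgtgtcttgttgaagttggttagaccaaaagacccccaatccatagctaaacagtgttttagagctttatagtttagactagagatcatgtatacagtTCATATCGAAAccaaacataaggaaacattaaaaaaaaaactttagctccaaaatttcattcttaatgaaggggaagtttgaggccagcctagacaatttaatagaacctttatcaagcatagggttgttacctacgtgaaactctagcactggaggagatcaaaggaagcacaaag
Windows were found for 8 of the 10 genes, 9 windows in all because Irf8 has 2. The motif was in 2 of the 9 and in 4.56% of the 32851 windows of all genes. A match of letters is a description and not a site shown to be bound.

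The 2 transcription factors of cDC1s had no common direction. Batf3 was at 6.64, 8.23, and 4.69 CPM in control tumors 1, 3, and 4 and at 6.17, 6.20, and 4.86 CPM in Sora-treated tumors 2, 3, and 4. The Sora-treated values all lay inside the control range, and the log2 fold change was -0.18 (95% interval -0.66 to 0.30, adjusted p = 0.737, edgeR). Irf8 was at 143, 184, and 147 CPM in control tumors 1, 3, and 4 and at 163, 142, and 207 CPM in Sora-treated tumors 2, 3, and 4. The highest and the lowest tumor were both Sora-treated, and the log2 fold change was 0.11 (95% interval -0.19 to 0.41, adjusted p = 0.742, edgeR). The interval of the Irf8 fold ran from 0.877 to 1.33. The spread of Irf8 between control tumors was 14.1% of the mean, with a counting error of 1.37%, so differences between tumors rather than reads set its interval.

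Itgae encodes CD103, the integrin chain that pairs with Itgb7 and binds E-cadherin (Cdh1), and it marks tissue cDC1s as well as resident T cells. Its level was 2.65, 1.87, and 2.91 CPM in control tumors 1, 3, and 4 and 2.08, 3.45, and 2.02 CPM in Sora-treated tumors 2, 3, and 4. Sora-treated tumor 3 was highest and the other 2 Sora-treated tumors lay inside the control range. The log2 fold change was 0.02 (95% interval -0.63 to 0.68, adjusted p = 0.98, edgeR). Haspin, a gene on the opposite strand, lies within Itgae, and the 2 share no exon base in GENCODE M21.

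Zbtb46, a transcription factor that sets cDCs apart from most other myeloid cells, varied least of the 10 genes over the 6 tumors (SD of log2(CPM + 1) 0.07, against 0.14 to 0.33 for the others). It was at 13.6, 12.99, and 13.5 CPM in control tumors 1, 3, and 4 and at 14.96, 13.4, and 14.9 CPM in Sora-treated tumors 2, 3, and 4. Sora-treated tumors 2 and 4 were above all control tumors and Sora-treated tumor 3 was among them. The means were 13.4 ± 0.343 and 14.4 ± 0.895 CPM (SD, n = 3), a log2 fold change of 0.11 with a 95% interval of the fold from 0.921 to 1.27 (adjusted p = 0.656, edgeR). Endothelial cells are also known to express Zbtb46. Summed over 6 endothelial markers, CPM ran from 194 to 233 in control tumors and from 155 to 212 in Sora-treated tumors, with overlap, and their part in the Zbtb46 level was not tested.

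Cd209a, a C-type lectin of cDC2s and of DCs that arise from monocytes, had the largest fold change of the 10 and the smallest p. It was at 3.99, 3.41, and 2.77 CPM in control tumors 1, 3, and 4 and at 6.17, 5.72, and 3.74 CPM in Sora-treated tumors 2, 3, and 4. Sora-treated tumors 2 and 3 were above all control tumors, and Sora-treated tumor 4 was below control tumor 1. The means were 3.39 ± 0.61 and 5.21 ± 1.29 CPM (SD, n = 3). On the log2 scale the fold change was 0.62 ± 0.24 (standard error), with an adjusted p of 0.209 in edgeR. The 95% interval of the fold, 1.06 to 2.23, leaves differences from slight to over 2-fold open. Cd209a has close relatives in the mouse genome, and reads that could belong to more than 1 of them are uncertain. Its promoter window (minus strand, chr8:3748935-3749234) is shown because it alone among the 9 windows holds a match to the composite element of ETS and IRF factors (GGAA and GAAA with 2 bases of any kind between them, both strands, in 2.72% of all windows), which begins 9 bases before the start on the opposite strand and reaches the start itself.
Cd209a: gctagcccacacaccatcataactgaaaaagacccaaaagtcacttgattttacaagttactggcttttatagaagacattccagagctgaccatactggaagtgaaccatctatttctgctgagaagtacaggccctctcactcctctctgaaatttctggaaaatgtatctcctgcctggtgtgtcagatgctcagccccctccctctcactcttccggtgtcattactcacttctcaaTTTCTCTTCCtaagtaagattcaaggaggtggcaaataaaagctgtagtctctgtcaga
The IRF element, GAAA and GAAA with 2 bases of any kind between them, was in 0 of the 9 windows and in 3.44% of all windows. The AP-1 site TGANTCA was in 1 of 9, that of Zbtb46 (7.81% of all windows), and the PU.1-type site GAGGAAG was in 1 of 9, that of Batf3 (13.6%). None of the capitals in the 3 sequences shown is shared by 2 motifs.

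Siglech, a sialic acid-binding receptor of pDCs, rested on 19 to 38 reads per tumor. It was at 0.81, 0.86, and 0.658 CPM in control tumors 1, 3, and 4 and at 0.671, 1.13, and 0.574 CPM in Sora-treated tumors 2, 3, and 4. Sora-treated tumor 3 stood above the rest and the other 2 were near the lowest control tumor. The log2 fold change was 0.03 with a 95% interval from -0.84 to 0.91 (adjusted p = 0.98, edgeR). Counting error was 19.6% of the mean in both groups, and the spread between tumors was 13.6% for the control group and 37.6% for the Sora-treated group.

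The 2 genes of migratory DCs both had log2 fold changes under 0 without passing the test. Ccr7 was at 7.04, 8.11, and 6.96 CPM in control tumors 1, 3, and 4 and at 6.30, 5.30, and 6.19 CPM in Sora-treated tumors 2, 3, and 4, without overlap. The means were 7.37 ± 0.639 and 5.93 ± 0.546 CPM (SD, n = 3), and the log2 fold change was -0.31 (95% interval -0.66 to 0.03, adjusted p = 0.35, edgeR). Fscn1 was at 46.4, 39.1, and 46.0 CPM in control tumors 1, 3, and 4 and at 38.6, 40.8, and 34.6 CPM in Sora-treated tumors 2, 3, and 4. Control tumor 3 lay among the Sora-treated tumors, and the log2 fold change was -0.21 (adjusted p = 0.299, edgeR). T cells also carry Ccr7, and 10 T cell markers summed to 288 to 320 CPM in control tumors and to 225 to 244 CPM in Sora-treated tumors, without overlap. B cells carry Ccr7 too. Their 7 markers summed to 33.5 to 37.8 CPM in control tumors and to 27.4 to 29.5 CPM in Sora-treated tumors, without overlap. Of those tested, only Cd22, named after its values were seen, did not overlap by itself. It was at 15.2 to 17.5 CPM in control and 9.62 to 13.8 CPM in Sora-treated tumors. Pax5 was at 15.02 to 16.3 and 12.2 to 15.5 CPM, with overlap. The part of T cells and B cells in the Ccr7 values was not tested.

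**Figure D3:**
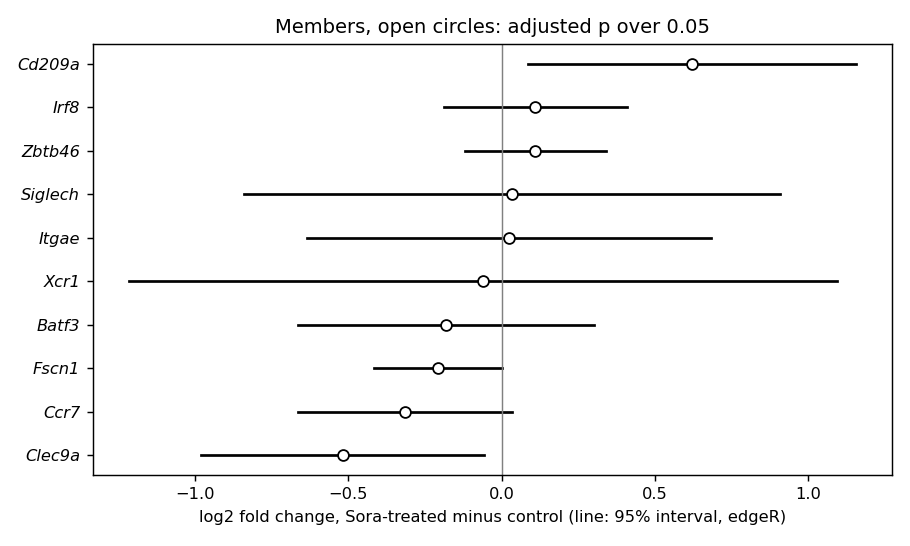
Log2 fold change of each gene (circle) with its 95% interval (line) from edgeR, Sora-treated minus control, 3 tumors per group. All circles are open because no adjusted p was under 0.05. The interval is widest for Xcr1 (-1.21 to 1.09) and lies to 1 side of 0 for Cd209a and Clec9a alone.

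Because Clec9a and Cd209a pointed in opposite directions, their ratio within each tumor was examined. The pair was chosen after its values were seen, and the ratio is given without a test. Reads of Clec9a were 1.84, 2.40, and 1.94 times those of Cd209a in control tumors 1, 3, and 4 and 0.648, 1.01, and 1.28 times in Sora-treated tumors 2, 3, and 4. The groups did not overlap, with a mean log2 ratio of 1.03 in the control group and -0.09 in the Sora-treated group. Set against Zbtb46 in the same way, the ratios of Clec9a (0.267 to 0.429 in Sora-treated and 0.398 to 0.629 in control tumors) and of Cd209a (0.251 to 0.427 and 0.205 to 0.292) each overlapped between the groups. The ratio of Ccr7 to Zbtb46 was 0.516, 0.624, and 0.516 in control tumors and 0.421, 0.396, and 0.414 in Sora-treated tumors, without overlap. The groups already did not overlap for Ccr7 alone and Zbtb46 varied little, so this ratio adds little to the Ccr7 values. It was not tested. Set against Itgax, the gene of CD11c, the ratios of Ccr7 (0.0302 to 0.0327 in control and 0.0266 to 0.0374 in Sora-treated tumors) and of Clec9a (0.0252 to 0.0319 and 0.0237 to 0.0289) overlapped between the groups.

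The tumors were not ordered alike by the 10 genes. Control tumor 3 was highest for Xcr1, Clec9a, Batf3, and Ccr7 and lowest for Itgae and Zbtb46. Control tumor 4 was lowest for Xcr1, Batf3, and Cd209a, and Sora-treated tumor 4 was next to it in Xcr1 and Batf3. Sora-treated tumor 3 was highest for Itgae and Siglech and lowest for Irf8 and Ccr7. Sora-treated tumor 4, whose counts were recovered from FPKM, was highest for Irf8 and lowest for Siglech and Fscn1. No tumor was therefore rich or poor in all DC subset genes.

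**Figure D4:**
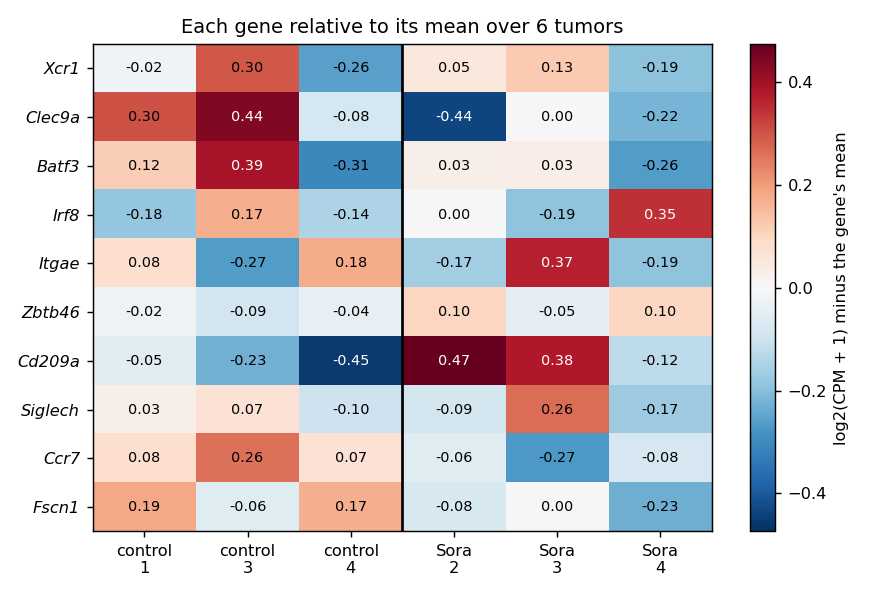
Log2(CPM + 1) of each gene in each tumor minus the mean of that gene over the 6 tumors (red, above; blue, below; the black line parts control from Sora-treated tumors). Xcr1 and Batf3 follow the same order of high and low tumors within each group, whereas Itgae is lowest in control tumor 3 (-0.27), where Clec9a is highest (0.44).

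For each gene the most similar pattern was sought among the other genes of the lists, by the root mean square difference of log2(CPM + 1) over the 6 tumors after each gene was centered on its mean. The pattern closest to Xcr1 was that of Batf3 (difference 0.09, where Xcr1 itself varied with an SD of 0.19). That of Clec9a was closest to Ly6c2, a monocyte gene (0.07, against an SD of 0.30), and that of Siglech to Smim5 of the pDC list (0.09, against 0.14). Itgae was closest to Flt3, the growth factor receptor of DCs (0.14, against 0.23), and Ccr7 to Pax5, a B cell factor (0.08, against 0.16). Batf3 was closest to Csf2ra (0.09, against 0.24), Irf8 to Pdcd1lg2 (0.07, against 0.20), Fscn1 to Adam19 (0.07, against 0.14), and Cd209a to Cdh1 (0.19, against 0.33). Zbtb46 was closest to Cacnb3, but the difference (0.06) was nearly as large as the SD of Zbtb46 itself (0.07). The points share 6 libraries, and many genes can look alike over so few.

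A wider set of 73 genes was listed by known role in 6 groups, called the wider DC lists below. Of the groups, 1 holds 13 ligands and partners, some of which other cells make. All were read in the same fit, and 67 of the 73 passed the filter. Of these, 1 was called higher, Cadm1, and 1 was called lower, Cd83, against 1.94% and 1.34% of all genes. DESeq2 gave 65 of the 73 an adjusted p and called 12, 2 higher and 10 lower, beside 4% and 3.71% of all genes. Of these 12, Ccl21a (higher) and Cxcl10 (lower) belong to the ligands and partners. Limma voom called 3 of 67, beside 3.2% of all genes. At an unadjusted p under 0.05 in edgeR, 5 were higher and 15 were lower, beside 8.53% and 8.69% of all genes, and 42 of the 67 log2 fold changes were under 0, beside 50.1% of all genes, with a median of -0.08.

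Cd83, a surface protein of mature DCs that is also made by activated B cells and other leukocytes, fell from 31.9, 30.7, and 30.2 CPM in control tumors 1, 3, and 4 to 23.4, 24.5, and 20.4 CPM in Sora-treated tumors 2, 3, and 4. The groups did not overlap, and the difference on the log2 scale was -0.44 ± 0.09 (standard error), with an adjusted p of 0.031 in edgeR. The call of Cd83 was lost without control tumor 1 (adjusted p = 0.099), 3 (0.069), or 4 (0.074) and without Sora-treated tumor 2 (0.092) or 4 (0.14). Cadm1, an adhesion molecule of cDC1s that epithelial tumor cells can also carry, rose from 97.4, 103, and 111 CPM in control tumors to 132, 132, and 151 CPM in Sora-treated tumors. The difference on the log2 scale was 0.41 ± 0.08 (standard error), with an adjusted p of 0.026 in edgeR, in the direction opposite to that of Clec9a. The call of Cadm1 was lost without control tumor 1 (adjusted p = 0.088) or 3 (0.067) and without Sora-treated tumor 2 (0.068) or 4 (0.13). Neither gene was called by limma on FPKM.

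The balance of higher and lower genes is given below for each of the wider DC lists, and the lists were not tested against each other. All 8 tested genes of the other pan-cDC list had a log2 fold change under 0 (median -0.37), 4 of them at an unadjusted p under 0.05, beside 8.69% of all genes on that side, and none called. DESeq2 called 3 of the 8 lower, Dpp4, Itgax, and Slamf7, beside 3.71% of all genes. Itgax, which encodes CD11c and is shared with macrophages, was at 229, 269, and 213 CPM in control tumors and 169, 199, and 193 CPM in Sora-treated tumors (log2 fold change -0.34, adjusted p = 0.091, edgeR). Slamf7, a receptor of the signaling lymphocytic activation family found on many leukocytes, had a log2 fold change of -0.59 (adjusted p = 0.053, edgeR). The CPM ratio of Zbtb46 to Itgax was 0.0673 to 0.0888 in Sora-treated tumors and 0.0484 to 0.0633 in control tumors. The ratio was chosen after its values were seen and was not tested.

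Among the other cDC1 genes, 7 of 12 were above 0 (median 0.03). Id2, an inhibitor of helix-loop-helix factors with the highest FPKM of this list, had a log2 fold change of 0.04. Among the 7 tested of the other cDC2 genes, 4 were under 0 (median -0.19). Sirpa, an inhibitory receptor shared with macrophages, was at 282, 282, and 248 CPM in control tumors and at 198, 234, and 194 CPM in Sora-treated tumors (log2 fold change -0.37, adjusted p = 0.053 in edgeR, 0.0027 in DESeq2, and 0.0498 in limma voom). Mgl2, a lectin, had a log2 fold change of -0.33 (adjusted p = 0.252 in edgeR), or -0.11 without control tumor 3. The other 5 tested genes of the list, named after their values were seen, were Irf4 (-0.48) and Esam (-0.19) under 0 and Klf4 (0.26), Notch2 (0.22), and Clec10a (0.15) on the side of Cd209a, none of them called by edgeR. The groups did not overlap for Sirpa, Mgl2, and Irf4, lower in Sora-treated tumors, and for Notch2, higher, beside 11.6% and 10.6% of all genes. Among the 11 tested of the other pDC genes, 6 were under 0 (median -0.07), with Pld4 at -0.42 (adjusted p = 0.06 in edgeR and 0.0054 in DESeq2) and Bst2, an antiviral tetherin, at -0.07 (adjusted p = 0.851). Among the 19 tested of the other migratory and mature DC genes, 13 were under 0 (median -0.09), and 7 of the 19 did not overlap between the groups, all lower in Sora-treated tumors, beside 11.6% of all genes. Tmem123, with the highest FPKM of that list, had a log2 fold change of -0.26 (adjusted p = 0.081 in edgeR and 0.025 in DESeq2). Named after their values were seen, the costimulatory ligands Cd86 and Cd80 had -0.34 (adjusted p = 0.055) and 0.29 (0.502), the chemokines Ccl22 and Ccl17, both ligands of Ccr4, -0.47 (0.089) and 0.10 (0.9), and Il12b, the p40 chain of IL-12, -1.07 (0.137), all by edgeR. In this list DESeq2 called Cd83, Cd86, Ccl22, and Tmem123, all lower, beside 3.71% of all genes.

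**Figure D5:**
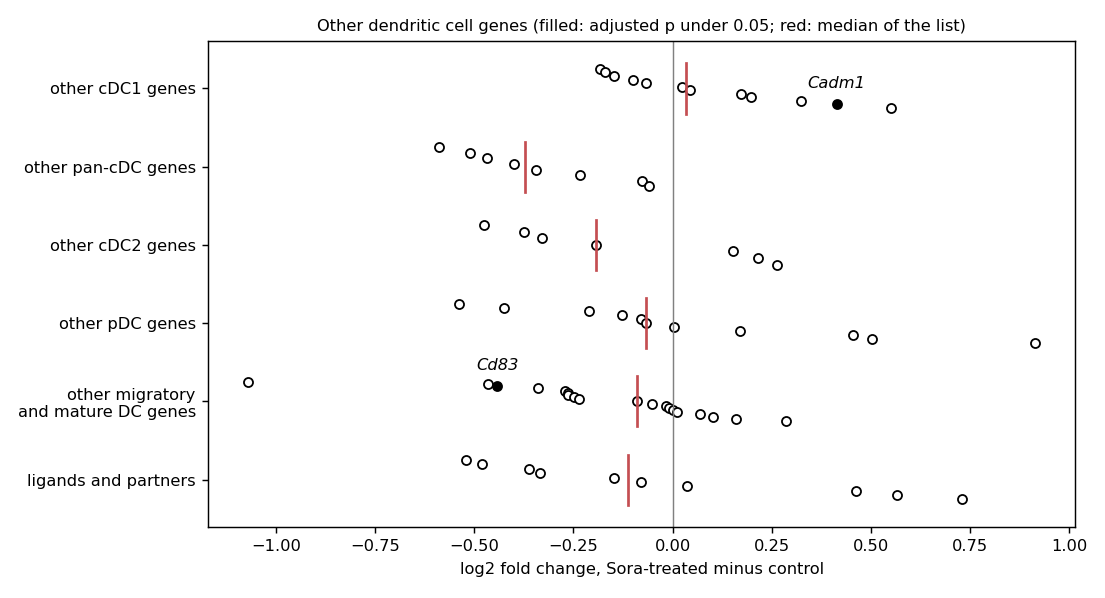
Log2 fold change (Sora-treated minus control) of each tested gene of the 6 wider DC lists, ligands and partners included, with the list median as a red line. Filled points are Cadm1 (0.41) and Cd83 (-0.44), and all 8 pan-cDC genes lie left of 0.

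The ligands and partners of the 10 genes gave no call in 10 tested of 13 (DESeq2 called Cxcl10 lower and Ccl21a higher, beside 7.71% of all genes, and 2 had an unadjusted p under 0.05 in edgeR, beside 17.2%). Ccl21a, a ligand of Ccr7 made by lymphatic vessels and lymph node stroma, was at 6.60, 5.005, and 6.52 CPM in control tumors and at 10.4, 12.2, and 7.55 CPM in Sora-treated tumors. The groups did not overlap, with the log2 fold change of the ligand at 0.73 (adjusted p = 0.071, edgeR) and that of its receptor Ccr7 at -0.31. Ccl21a has near-identical copies in the mouse genome, and Ccl21b was listed at 0 in 5 tumors and at 0.0289 FPKM in Sora-treated tumor 4, so the split of reads among them is uncertain. Ccl19, the other ligand, had 1, 7, and 8 reads in control tumors and 5, 43, and 3 reads in Sora-treated tumors 2, 3, and 4 and was not tested. Xcl1, the ligand of Xcr1 made by T and NK cells, had a log2 fold change of -0.52 (95% interval -1.24 to 0.20, adjusted p = 0.463, edgeR). Flt3l and its receptor Flt3, which drive DC development, had log2 fold changes of -0.08 and -0.06 (adjusted p = 0.864 and 0.956). Itgb7 and Cdh1, the partner and the ligand of Itgae, had -0.33 and 0.46 (adjusted p = 0.335 and 0.32). With 1 tumor left out at a time, Itgb7 ranged from -0.51 to -0.23. Cxcl9 and Cxcl10, chemokines for T cells that DCs and macrophages make after interferon, had -0.36 (0.307) and -0.48 (0.058), all by edgeR. Single tumors moved some of these values on the log2 scale: Xcl1 was at -0.28 without control tumor 1 and -0.29 without Sora-treated tumor 4, Cdh1 at 0.76 without control tumor 1 and 0.25 without Sora-treated tumor 2, and Cxcl9 at -0.16 when Sora-treated tumor 2 was left out and -0.55 when tumor 4 of that group was.

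Markers of other cells were read beside these genes, and their part in the results was not tested. 10 macrophage markers summed to 1914 to 2283 CPM in control tumors and to 1606 to 1878 CPM in Sora-treated tumors, without overlap, with Mertk called lower (log2 fold change -0.45, adjusted p = 0.031). All 10 T cell markers had a log2 fold change under 0, beside 50.1% of all genes, and Cd6 (-0.58, adjusted p = 0.039) and Cd8b1 (-0.56, 0.018) were called lower, beside 1.34% of all genes, whereas S100a9 of the neutrophil list was called higher (1.21, 0.042). The 6 monocyte markers summed to 370 to 452 CPM in control tumors and to 337 to 381 CPM in Sora-treated tumors, and Clec9a, which followed the monocyte gene Ly6c2, had its high values in the same control tumors 1 and 3. Cd207 (langerin), found on Langerhans cells of the epidermis and on CD103+ cDC1s of the dermis and named after its values were seen, was at 0.329 to 0.703 CPM, while the list of 7 Langerhans cell and skin genes summed to 306 to 1030 CPM in control tumors and to 651 to 919 CPM in Sora-treated tumors. The hepatoma genes Alb (-0.55, adjusted p = 0.041) and Ttr (-2.15, 0.0055) were called lower and Apoa1 (1.03, 0.047) higher in Sora-treated tumors by edgeR. Beside these, 1.34% of all genes were called lower and 1.94% higher. The rest of the hepatoma list, named after the values were seen, was not called. Krt8 (0.30), Krt18 (0.33), and Apoa2 (0.13) were above 0 and Afp (-0.09) under 0. Alb was at 1306 FPKM on average. With 1 tumor left out at a time, Ttr alone kept its call in each case. The calls of Mertk, Cd6, Cd8b1, S100a9, Alb, and Apoa1 were each lost without Sora-treated tumor 2 or 4 and without 1 to 3 of the control tumors (adjusted p from 0.055 to 0.182), and S100a9 and Apoa1 were called neither by DESeq2 (0.053 and 0.063) nor by limma voom (0.073 and 0.081). With the replicate number as a block these 6 calls were lost too (0.062 to 0.408). Control tumor 1 and Sora-treated tumor 2 have no partner of the same number, so that fit compares fewer tumors and has less power. The log2 fold change of Apoa1 was 0.65 without Sora-treated tumor 4, and that of S100a9 was 0.79 without Sora-treated tumor 2.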

How the data were processed

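RNA of 3 control and 3 Sora-treated tumors was sequenced, 1 library per tumor. The authors deposited a table of counts (whole reads per gene, not normalized) for 5 tumors as used here and a table of FPKM (counts divided by gene length and total) for 6. The paper's methods name Bowtie2 and GRCm38, whereas the submitters' processing notes name fastp, HISAT2, HTSeq, R 3.2.0, DESeq2, and GRCm39. The files carry no coordinates, so those given are of GENCODE M21 or RefSeq on GRCm38. Annotation, strand, and filters are not given in the sources used here.

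Gene lengths were taken from counts and FPKM of the 5 tumors and used to recover whole counts of Sora-treated tumor 4 (20951 genes; 342 genes with 512 reads stayed at 0). Treating each known tumor as unknown returned the counts of 100% of the genes with a known length exactly, and 460 to 556 genes with 669 to 1023 reads had none. Genes that reached 10 counts in 3 or more tumors were tested with edgeR 4.0.16 (glmQLFit, glmQLFTest, TMM) in R 4.3.3. Standard errors are the log2 fold change over the root of F, and 95% intervals use its degrees of freedom and cover the spread between tumors. DESeq2 1.42.0, limma 3.58.1 (voom, or log2(FPKM + 1) and log2(FPKM + 0.1)), other scalings and filters, a replicate block, and leaving out each tumor were alternatives.

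The 10 genes and the lists were chosen with earlier results of these data known. Named genes were the 10, list genes with an adjusted p under 0.05, the highest FPKM and smallest p of each DC list, direct ligands and partners, and the most similar patterns. Exceptions are stated where they occur, apart from genes named for a call by another tool or for a shared sequence or position.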

Additional observations from a re-analysis of the deposited data

How the results depend on the processing

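None of the 10 DC subset genes was called under those of the 18 alternatives that tested it (0 in each, smallest adjusted p 0.127, Cd209a in DESeq2). Xcr1 was tested in 14 of them, Siglech in 15, Itgae in 16, and the other 7 genes in all 18. Counts of the other calls depended on the setting. In place of 543 genes called in all and 2 of the wider DC lists, DESeq2 called 1194 and 12, edgeR without a filter 1147 and 9, edgeR with the replicate number as a block 125 and 0, limma on log2(FPKM + 1) 286 and 0, limma on log2(FPKM + 0.1) 252 and 0, and limma on log2(FPKM + 1) without a filter 0 and 0 (3143 and 17 at an unadjusted p under 0.05). Total counts without TMM gave 4 of the wider DC lists. With 1 tumor left out, edgeR called 5 to 1145 genes in all and 0 to 7 of the wider DC lists. The fewest came without Sora-treated tumor 4, where only deposited counts are used, and the most without Sora-treated tumor 3. The cause was not tested. Only the numbers 3 and 4 occur in both groups, so the fit with the block compares those tumors alone and has less power. The correlation of the deviations was -0.033 for number 3 and -0.074 for number 4, and from -0.157 to 0.259 for tumors of unlike number. So few pairs cannot show whether the tumors were paired.

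With gene lengths as summed exons, chosen after seeing the data, the ratio of mean FPKM of Irf8 to Xcr1 was 206 in place of 423.

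Signs of genes near 0 turned. With voom, Xcr1 had a log2 fold change of 0.053 and Siglech -0.011, and with the block Bst2 had 0.0069. With 1 tumor left out, the log2 fold changes ranged from -0.40 to 0.47 for Xcr1, -0.37 to 0.023 for Batf3, -0.051 to 0.23 for Irf8, -0.27 to 0.16 for Itgae, -0.32 to 0.22 for Siglech, -0.19 to 0.12 for Bst2, -0.034 to 0.16 for Id2, -0.33 to 0.14 for Flt3, -0.19 to 0.041 for Flt3l, and -0.32 to 0.43 for Smim5. Clec9a (-0.67 to -0.39), Cd209a (0.48 to 0.81), Ccr7 (-0.36 to -0.24), Fscn1 (-0.28 to -0.14), and Zbtb46 (0.08 to 0.16) kept their sign with each tumor left out. Among the DC subset genes, Xcr1 and Siglech had the fewest reads. Xcr1, Siglech, and Itgae fell out of the FPKM fits that ask for at least 1 FPKM. Xcr1 and Siglech also fell out of the fit that asks for a mean of 50 counts. Xcr1 fell out of the fit that asks for 10 counts in every tumor as well.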
